A study of Mus musculus with 6 samples.

Results

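The transcripts of *Yy1* and of 9 subunits of the INO80 chromatin remodeler were followed in mouse morulae after knockdown (KD) of *Yy1*. The 10 genes (*Yy1*, *Ino80*, *Ino80b*, *Ino80c*, *Ino80d*, *Ino80e*, *Nfrkb*, *Mcrs1*, *Actr5* and *Actr8*) were chosen by name, as YY1 and subunits of a complex that it binds, from the 55364 genes listed, and all 10 were among the 17353 genes that passed the filter on low values (a TPM of 1 in 3 or more libraries). BDF1 x BDF1 zygotes made by in vitro fertilization were injected in the cytoplasm with a control siRNA (control KD) or with an siRNA against *Yy1* (*Yy1* KD), grown in KSOM medium and collected as morulae 64 h after insemination. Each group had 3 libraries of total RNA, each made from a pool of 10 morulae, and the labels name no modified allele in either group. The labels do not say whether the pools came from separate fertilizations, so that the p-values measure the spread between these pools, which may be technical. A lower level in a pool can reflect fewer cells of a type or less RNA per cell, which cannot be told apart.

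YY1 is a zinc finger transcription factor that can activate or repress genes, and it is one of the sequence-specific factors that bring INO80 to promoters. INO80 is a large remodeler that uses ATP to slide and space nucleosomes and has been linked to the exchange of the histone variant H2A.Z, and it is known for supporting pluripotency genes in embryonic stem cells and for its role in DNA replication and repair. The INO80 ATPase forms the backbone of the complex, on which an actin-related module with ACTR8, a nucleosome-binding module with ACTR5 and INO80C, and a module with NFRKB and MCRS1 are assembled. INO80B, INO80D and INO80E are further subunits, and INO80B is the relative of a yeast subunit that stimulates the ATPase.

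The values are TPM, that is, read pairs per exon length scaled to a sum of 1000000 per library. The length takes in all annotated exons of a gene, such as 1594 bases for *Ino80b* and 17713 for *Ino80d*. Which of these exons are in the transcripts present was not examined, so comparisons of level between genes depend on the annotation. TPM multiplied by exon length recovered between 11793509 and 24417789 read pairs on genes per library, and between 16696 and 17687 genes reached a TPM of 1. Markers of the preimplantation embryo were abundant, with a summed level of 5661 to 6261 TPM in control KD and 5848 to 6148 TPM in *Yy1* KD libraries, of which *Dppa3* gave 4539 TPM in the control KD mean. Of its 6 genes, *Tfap2c*, a transcription factor of the trophectoderm and the early embryo, was called lower (log2 fold change -0.54, limma adjusted p = 0.0174), and none of the 5 trophectoderm markers was called. *Sox2*, a pluripotency factor of the embryo list, had lower values in every *Yy1* KD library (10.98 ± 2.91 against 5.60 ± 1.51 TPM, SD, n = 3 each) without a call (limma adjusted p = 0.0942). The 3 primitive endoderm markers, of which 2 were tested and none was called, summed to 112 to 133 TPM in control KD and 134 to 135 TPM in *Yy1* KD libraries. The cumulus cell list summed to between 8.08 and 10.6 TPM over all libraries, nearly all of it from *Amhr2*, with *Has2* and *Fshr* at 0 in every library, and the sperm list summed to at most 2.26 TPM. Of the 4 oocyte markers, summed at 35.3 to 46.4 TPM, none was called.

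Sequences upstream of the start sites show where the YY1 consensus AANATGGC (GCCATNTT on the other strand) is present among these genes. RefSeq promoter windows (GRCm38.p6, the assembly of mm10), which run from 250 bases before to 50 after the start, were at hand for 6 of the 10 genes: *Yy1*, *Ino80*, *Ino80b*, *Ino80e*, *Nfrkb* and *Mcrs1*. Searched on both strands, the consensus was present in *Ino80b*, in 1 of the 2 windows of *Ino80e* and in no window of the other 4 genes, beside 1881 of all 27025 genes with a window (6.96%). The sites are given with the consensus in capitals, 5′ to 3′ on the strand of the gene:
*Ino80b*, minus strand, chr6:83125318-83125347: gttttgagaacAAGATGGCattaagcctgg
*Ino80e*, minus strand, chr7:126862438-126862467: catctcccggcGCCATTTTgcgtcaccagg

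The *Ino80b* site lies 217 to 210 bases before the RefSeq start. GENCODE (release vM21) starts *Ino80b* further upstream and places the site in exonic 5′ untranslated sequence. The *Ino80e* site lies 84 to 77 bases before the start of *Ino80e* in that window and covers the annotated start codon of *Hirip3*, which is transcribed from the opposite strand. In the 100 bases nearest to the start, 0 of the 6 genes held the consensus, beside 3.42% of all genes. *Ino80* encodes the ATPase, and its sequence is shown because its level changed while its window held no match. These are the 250 bases before its start, which hold 28 CpG dinucleotides and no annotated exon:
*Ino80*, minus strand, chr2:119477688-119477937: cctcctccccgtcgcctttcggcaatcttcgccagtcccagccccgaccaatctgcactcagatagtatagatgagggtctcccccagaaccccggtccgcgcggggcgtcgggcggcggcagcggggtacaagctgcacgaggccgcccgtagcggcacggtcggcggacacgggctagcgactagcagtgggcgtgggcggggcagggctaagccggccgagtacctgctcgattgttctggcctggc

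A match is a description of the letters in these windows and was not tested as a binding site. The *Ino80* window was 70.0% G and C and the *Ino80b* window 51.3%, beside a median of 52.7% over all windows.

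*Yy1* KD changed 3 of the 10 genes. *Ino80b* and *Ino80*, the latter encoding the ATPase itself, rose, *Yy1* fell, and the remaining 7 subunits were not called. Over all 17353 genes tested with limma on log2(TPM + 1), 1.92% were called higher and 4.20% lower at a Benjamini-Hochberg adjusted p under 0.05 (6.11% in either direction). Beside this background, 2 of the 9 INO80 subunits were called higher and 0 lower (2 lower at an unadjusted p under 0.05, and 1 lower with limma-voom on recovered read pairs). Over all 17353 genes, 1623 were higher and 2500 lower at an unadjusted limma p under 0.05, and limma-voom called 838 and 1323. The 3 control KD values did not overlap the 3 *Yy1* KD values in 2 of the 9 subunits that were higher, beside 12.9% of all genes, and in 1 that was lower (*Ino80e*), beside 17.2%. The median log2 fold change of the 9 subunits was -0.03 and that of all genes tested -0.02. Since the genes were chosen with earlier results of these data known, these counts describe the list and were not tested.

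**Figure D1:**
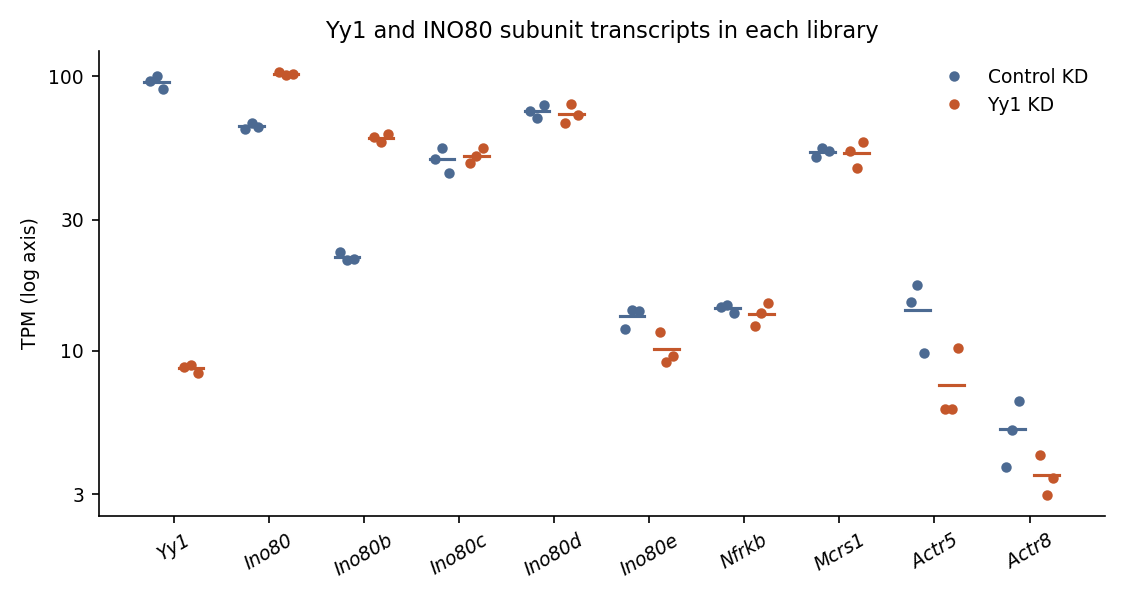
TPM on a log axis of the 10 genes in each library, with control KD in blue and *Yy1* KD in red; points are libraries and lines are means of 3. *Yy1* is separated downwards and *Ino80* and *Ino80b* upwards, while the points of *Ino80c*, *Ino80d*, *Nfrkb* and *Mcrs1* overlap between the groups.

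*Yy1* (ENSMUSG00000021264.12, chromosome 12, 108792973 to 108820148, plus strand, GRCm38), the target of the siRNA, was at 96.0, 100.2 and 89.8 TPM after control KD and at 8.73, 8.90 and 8.32 TPM after *Yy1* KD. All libraries thus followed their labels. The level that remained was 9.07% of the control mean (log2 fold change -3.32, standard error 0.09, limma adjusted p = 6.71e-05), from 264.5 to 434 read pairs per *Yy1* KD library. In control KD morulae *Yy1* had the highest mean TPM of the 10 genes, and in *Yy1* KD morulae it was in place 8.

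*Ino80* (ENSMUSG00000034154.15, chromosome 2, 119373042 to 119477687, minus strand), which shares no exonic sequence with another gene, was at 64.3, 67.3 and 65.0 TPM in control KD and at 104, 101 and 102 TPM in *Yy1* KD libraries. Every *Yy1* KD library was higher than every control KD library, and the SD within each group was under 2 TPM. The mean went from 65.5 ± 1.53 to 102 ± 1.35 TPM (SD, n = 3 each), which is 1.56-fold. The log2 fold change was 0.63 (standard error 0.07, 95% interval 0.48 to 0.79, limma adjusted p = 0.00949), and the two-sided exact permutation test gave p = 0.1, the smallest that 3 libraries against 3 allow. Without control KD replicate 3, the log2 fold change of *Ino80* was 0.63 and the adjusted p 0.0511, while it was called in each of the other 5 fits that left out 1 library. Over all alternatives its log2 fold change was between 0.62 and 0.69.

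*Ino80b* (ENSMUSG00000030034.12, chromosome 6, 83121765 to 83125431, minus strand) had the largest increase of the 10 genes. Its coordinates and exons are those of GENCODE vM21, which holds the earlier version ENSMUSG00000030034.11. It was at 22.9, 21.4 and 21.5 TPM in control KD and at 60.2, 57.5 and 61.5 TPM in *Yy1* KD libraries. The groups did not overlap and were far apart relative to the spread between pools. The means differed 2.72-fold, with a log2 fold change of 1.41 (95% interval 1.21 to 1.60, limma adjusted p = 0.00204), and the call was made in all 16 alternatives that gave a test. The size of this change is in place 357 of the 17353 genes tested, and that of *Ino80* in place 2662.

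Read pairs were assigned without regard to strand, and 91 of the 1594 exonic bases of *Ino80b* are shared with *Gm44287*, an annotated antisense transcript on the plus strand. *Gm44287* was at 32.6, 23.2 and 31.0 TPM in control KD and at 79.3, 82.8 and 90.1 TPM in *Yy1* KD libraries (log2 fold change 1.52, limma adjusted p = 0.00632), so that it moved with *Ino80b* and reads from either strand cannot be told apart. It held between 49 and 178 read pairs per library, against 189 to 743 for *Ino80b*. When every pair of *Gm44287* was subtracted from *Ino80b*, 16.97, 17.1 and 15.9 TPM remained in control KD and 45.8, 42.4 and 45.1 TPM in *Yy1* KD libraries. The increase was then 2.67-fold. This subtraction was added after the data were seen.

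**Figure D2:**
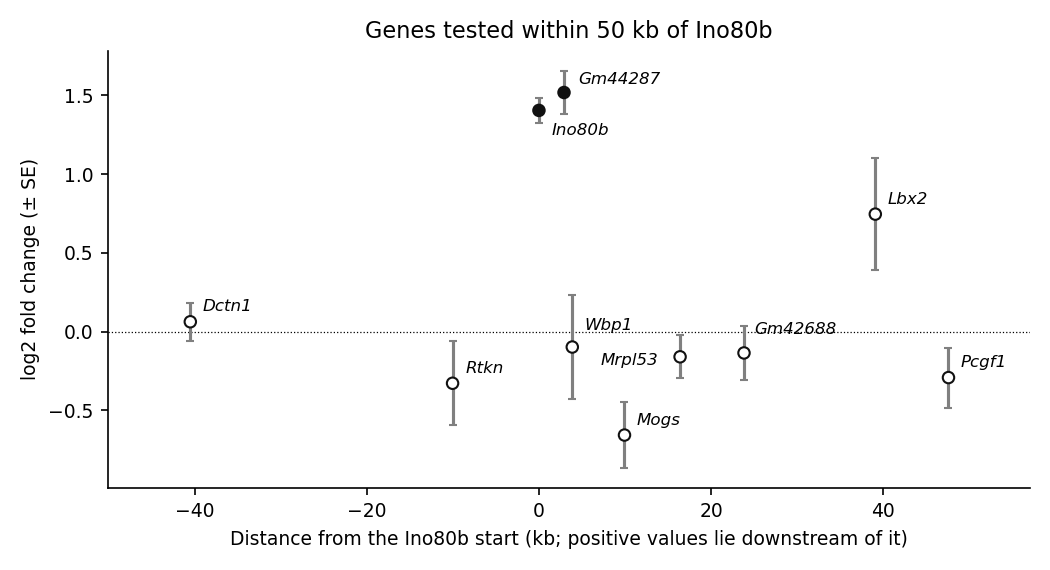
Log2 fold change (points, with standard errors) of *Ino80b* and the 9 genes tested within 50 kb, against the distance of their start from that of *Ino80b* in kb. Filled points were called at an adjusted p under 0.05, which were *Ino80b* and the overlapping *Gm44287* alone.

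Of the 9 genes tested within 50 kb of *Ino80b*, *Gm44287* alone was called. *Wbp1*, the next gene on the same strand, lies 205 bases from the end of *Ino80b* and was at 1.77, 4.76 and 4.91 TPM in control KD and at 2.96, 2.95 and 3.91 TPM in *Yy1* KD libraries (log2 fold change -0.10, limma adjusted p = 0.891). *Mogs*, a glucosidase of glycoprotein processing, had lower values in every *Yy1* KD library (11.7 to 18.6 TPM) than in the control KD libraries (18.8 to 28.2 TPM), but missed the threshold (limma adjusted p = 0.117, log2 fold change -0.66). The remaining 6 genes (*Pcgf1*, *Lbx2*, *Gm42688*, *Mrpl53*, *Rtkn* and *Dctn1*) had groups that overlapped. The region around *Ino80b* therefore held no other gene that was called higher.

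In *Ino80d*, *Mcrs1*, *Ino80c* and *Nfrkb*, the difference between the group means was at most 0.06 on the log2 scale. *Ino80d* (chromosome 1), a subunit found in animals, was at 74.7, 70.1 and 78.4 TPM in control KD and at 67.5, 79.0 and 71.9 TPM in *Yy1* KD libraries. *Mcrs1* (chromosome 15), whose protein also belongs to the NSL acetyltransferase complex, was at 50.6, 54.7 and 53.2 TPM in control KD and at 53.2, 46.4 and 57.7 TPM in *Yy1* KD libraries. The ranges of both genes overlapped between the groups. *Ino80c* (chromosome 18), the partner of ACTR5, was at 50.01, 54.7 and 44.5 TPM in control KD and at 48.2, 51.1 and 54.6 TPM in *Yy1* KD libraries. *Nfrkb* (chromosome 9), which holds the deubiquitinase UCHL5 in the complex, was at 14.4, 14.6 and 13.7 TPM in control KD and at 12.3, 13.7 and 14.9 TPM in *Yy1* KD libraries. These groups overlapped as well.

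The 95% intervals of the log2 fold change were -0.24 to 0.18 for *Ino80d*, -0.26 to 0.22 for *Mcrs1*, -0.20 to 0.29 for *Ino80c* and -0.34 to 0.21 for *Nfrkb*. An increase of the size seen in *Ino80* lies outside each of these intervals. The adjusted p was 0.791 or more for all 4 genes with limma, and their small differences changed sign with scaling or with 1 library left out.

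*Actr5*, *Actr8* and *Ino80e* had lower mean values in *Yy1* KD morulae, without passing the test. *Actr5* (chromosome 2), the actin-related protein of the nucleosome-binding module, was at 15.1, 17.4 and 9.84 TPM in control KD and at 6.16, 6.12 and 10.2 TPM in *Yy1* KD libraries. The third replicate of each group met the other group, so that the groups overlapped. The log2 fold change was -0.83 (95% interval -1.46 to -0.20, limma adjusted p = 0.12), from 141 to 750 read pairs per library, and the two-sided exact permutation p was 0.2. With limma-voom on recovered read pairs *Actr5* was called lower (log2 fold change -0.94, adjusted p = 0.0371), the one alternative that called a further gene of the 10.

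*Actr8* (chromosome 14), the actin-related protein that binds linker DNA with its module, had the lowest mean TPM of the 10 genes. It was at 3.79, 5.14 and 6.57 TPM in control KD and at 4.16, 2.99 and 3.45 TPM in *Yy1* KD libraries, with overlapping groups (log2 fold change -0.43, 95% interval -0.97 to 0.11, limma adjusted p = 0.314). *Ino80e* (chromosome 7, 126850960 to 126862377) was at 11.96, 14.1 and 14.0 TPM in control KD and at 11.7, 9.10 and 9.57 TPM in *Yy1* KD libraries. Its groups did not overlap, although the closest values were 11.96 and 11.7 TPM. The log2 fold change was -0.37 (95% interval -0.71 to -0.03, limma adjusted p = 0.175), and it was called in 0 of 16 alternatives. Its exons overlap those of *Hirip3* and *Doc2a* on the other strand, which were not called (limma adjusted p = 0.748 and 0.977).

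**Figure D3:**
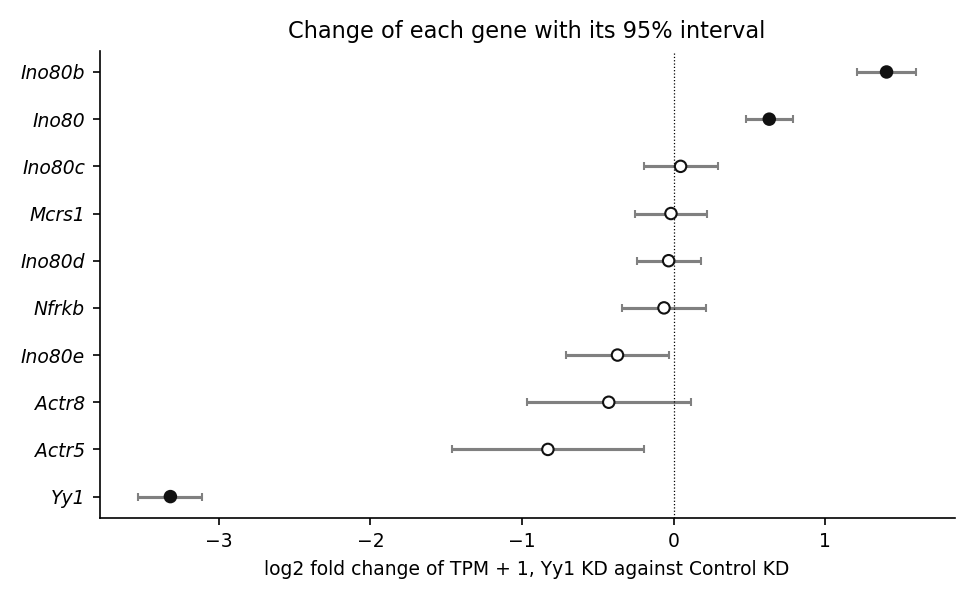
Log2 fold change of TPM + 1 between *Yy1* KD and control KD morulae for the 10 genes, with 95% intervals from limma; filled points were called at an adjusted p under 0.05. *Ino80b* (1.41) and *Ino80* (0.63) lie to the right of 0, *Yy1* (-3.32) to the far left, and the 7 open points between -0.83 and 0.05.

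In control KD morulae the order by mean level was *Yy1* (95.3 TPM), *Ino80d* (74.4), *Ino80* (65.5), *Mcrs1* (52.9), *Ino80c* (49.7), *Ino80b* (21.9), *Nfrkb* (14.2), *Actr5* (14.1), *Ino80e* (13.3) and *Actr8* (5.17). *Mcrs1* and *Ino80c* overlapped in their 3 values, as did *Nfrkb* with *Actr5* and *Actr5* with *Ino80e*, so that these neighbours were not separated beyond their spread. In *Yy1* KD morulae *Ino80* was first (102 TPM), followed by *Ino80d* (72.8) and *Ino80b* (59.7). *Ino80b* then overlapped *Mcrs1* (52.4), and *Yy1* (8.65) overlapped *Actr5* (7.49).

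The shares of the 9 subunits in their summed TPM are not altered when a library is multiplied by a constant. *Ino80b* made up 7.44%, 6.69% and 7.02% of the sum in the control KD libraries and 16.4%, 15.7% and 15.9% in the *Yy1* KD libraries. The share of *Ino80* was 20.9%, 21.1% and 21.2% in control KD and 28.2%, 27.5% and 26.4% in *Yy1* KD libraries. Both shares were higher in every *Yy1* KD library. The other 7 subunits had lower mean shares, which follows in part from the rise of these 2. For *Ino80d*, *Mcrs1*, *Ino80c* and *Nfrkb*, whose TPM hardly differed between the groups, the lower share follows mainly from the larger sum. The share of *Ino80d* went from 23.9 ± 1.83% to 19.5 ± 1.76% and that of *Actr5* from 4.51 ± 1.16% to 1.997 ± 0.561% (SD, n = 3 each).

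The ratio of *Ino80b* to *Ino80* was 0.356, 0.317 and 0.331 in control KD and 0.582, 0.570 and 0.603 in *Yy1* KD libraries. *Ino80b* thus rose more than *Ino80* in TPM in relation to its own level. In contrast, the ratio of *Actr5* to *Ino80* was 0.234, 0.258 and 0.151 in control KD and 0.0595, 0.0607 and 0.1001 in *Yy1* KD libraries. The summed TPM of the 9 subunits was 311 ± 7.004 in control KD and 373 ± 10.8 in *Yy1* KD libraries (mean and SD of 3 libraries each), and that of the 7 subunits without *Ino80* and *Ino80b* was 224 ± 5.99 and 211 ± 9.83. These shares, ratios and sums are given as descriptions.

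**Figure D4:**
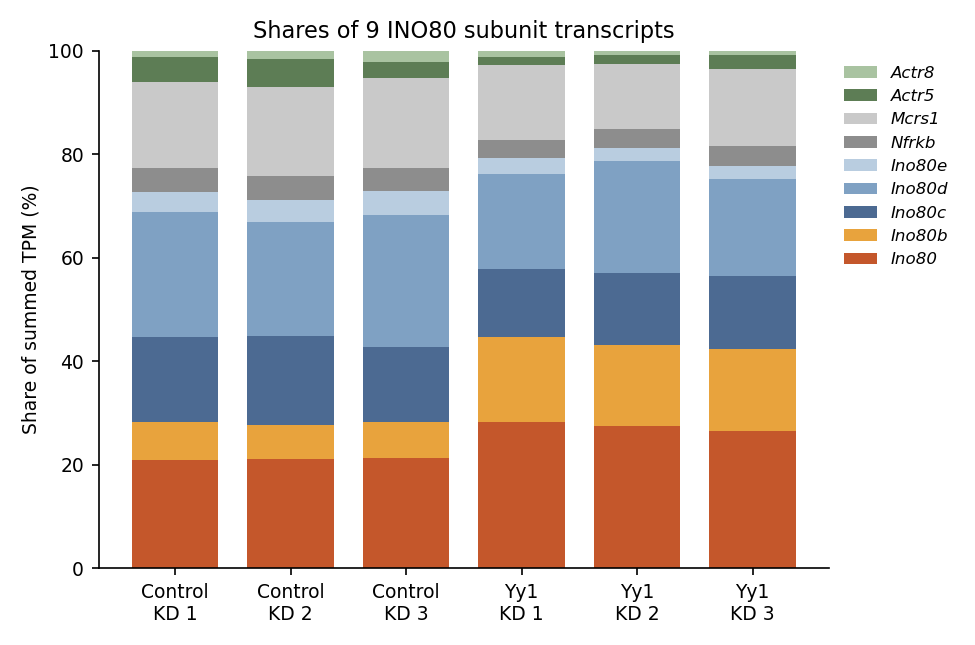
Stacked bars give the share (percent) of each of 9 INO80 subunit transcripts in their summed TPM, 1 bar per library. In the *Yy1* KD bars the *Ino80* and *Ino80b* segments are larger, with *Ino80b* at 15.7% to 16.4% against 6.69% to 7.44% in control KD.

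INO80 also holds 6 other subunits, most of which it shares with other complexes or with the cytoskeleton. Of these, *Ruvbl1*, an AAA+ ATPase that forms a ring with RUVBL2, was called higher, and 0 of the 6 were called lower (1 at an unadjusted p under 0.05, and 1 with limma-voom). Beside this, limma called 1.92% of all 17353 genes tested higher and 4.20% lower. Of all genes tested, 2500 were lower at an unadjusted limma p under 0.05, and limma-voom called 1323 lower. *Ruvbl1* was at 148, 153 and 141 TPM in control KD and at 206, 202 and 189.6 TPM in *Yy1* KD libraries, without overlap (log2 fold change 0.43, limma adjusted p = 0.0233). Its ring partner *Ruvbl2* was at 238, 247 and 227 TPM in control KD and at 243, 215 and 226 TPM in *Yy1* KD libraries (log2 fold change -0.06, limma adjusted p = 0.681). *Tfpt* (log2 fold change 0.41, limma adjusted p = 0.0808) and *Actl6a*, the actin-related protein shared with BAF complexes (0.25, limma adjusted p = 0.125), had higher values in every *Yy1* KD library but were not called. *Uchl5*, the deubiquitinase, had overlapping groups, and so did *Actb*, the gene for beta-actin, with a log2 fold change of -0.50 and a limma adjusted p of 0.117. The median over the 6 genes was 0.25, beside -0.02 over all genes tested.

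The SRCAP and TIP60 complexes use some of the same subunits and place or acetylate H2A.Z nucleosomes. Of their 20 genes, counted with the H2A.Z genes, 3 were called higher and 1 lower, beside 1.92% and 4.20% of all genes. With limma-voom 5 were called higher and 2 lower, beside 838 and 1323 of the 17353 genes tested. *Srcap*, the ATPase that deposits H2A.Z, went from 29.8 ± 1.17 to 41.3 ± 1.54 TPM (SD, n = 3 each), with a limma adjusted p of 0.0301 and a log2 fold change of 0.46. *Vps72*, an H2A.Z chaperone of both complexes, went from 61.4 ± 5.89 to 85.7 ± 3.31 TPM (log2 fold change 0.48, limma adjusted p = 0.035). *H2az1*, which encodes H2A.Z, went from 365 ± 27.2 to 484 ± 30.7 TPM (log2 fold change 0.41, limma adjusted p = 0.0419). *Morf4l1*, a chromodomain protein of TIP60, fell from 57.6 ± 5.27 to 37.6 ± 3.91 TPM (log2 fold change -0.60, limma adjusted p = 0.0331). The median over the 20 genes was 0.06, with 10 above 0 and 10 below.

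None of these 5 calls, *Ruvbl1* included, was made in any of the 6 fits that left out 1 library, and with the replicate number as a block they were not called either. *Ino80b* and *Yy1* were called in all of those fits.

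**Figure D5:**
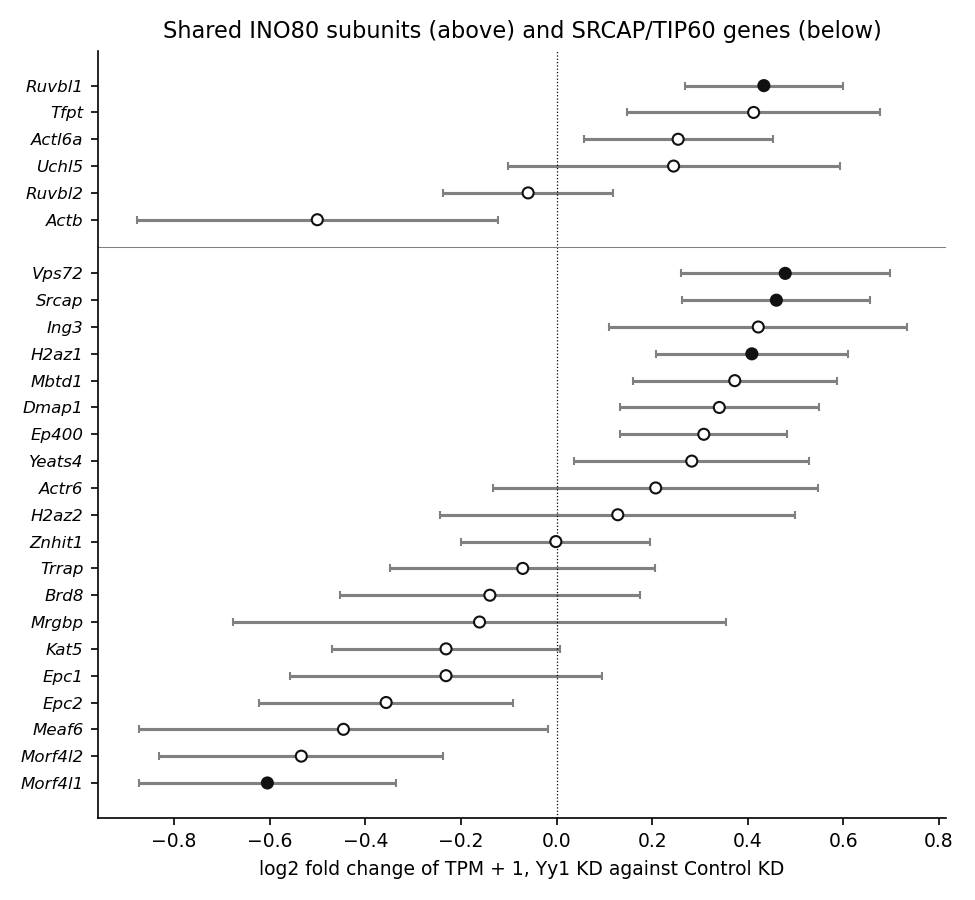
Log2 fold change of TPM + 1 with 95% intervals for 6 other INO80 subunits, most of them shared (above the line), and 20 genes of SRCAP and TIP60 with H2A.Z (below). Filled points were called at an adjusted p under 0.05: *Ruvbl1* above the line, and *Vps72*, *Srcap*, *H2az1* and, to the left of 0, *Morf4l1* below it.

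In the NSL complex, the other complex of MCRS1, 0 of 8 genes were called with limma (1 higher and 2 lower at an unadjusted p under 0.05, and 1 lower with limma-voom). Of 17 ATPases of other remodelers, 16 were tested, and *Srcap* alone was called (3 higher and 3 lower at an unadjusted p under 0.05, and 4 higher and 1 lower with limma-voom). Over all 17353 genes tested, limma called 1.92% higher and 4.20% lower. At an unadjusted limma p under 0.05, 1623 of all genes were higher and 2500 lower, and limma-voom called 838 and 1323. *Smarca5*, the ISWI ATPase, was at 381, 373 and 363 TPM in control KD and at 399.5, 392 and 381 TPM in *Yy1* KD libraries (log2 fold change 0.07, limma adjusted p = 0.55), and *Smarca4*, the BAF ATPase, at 233 ± 8.39 and 248 ± 16.9 TPM (SD, n = 3 each), with a log2 fold change of 0.09 and a limma adjusted p of 0.531. *Chd4*, the NuRD ATPase, had a log2 fold change of -0.50 and a limma adjusted p of 0.0559. On the log2(TPM + 1) scale of this fit, the change of *Ino80* was larger than that of all 16 of these ATPases. This scale understates changes of low genes. *Chd3* went from 2.58 ± 0.645 to 4.01 ± 0.230 TPM without a call (limma adjusted p = 0.209). That is 1.55-fold, beside 1.56-fold for *Ino80*. The difference between *Ino80* and these ATPases was not tested.

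Among the relatives and binding proteins of YY1, 2 of 8 genes were called, both lower, beside 4.20% of all genes. *Zfp42* (REX1), a retroposed relative of *Yy1*, was at 216, 210.4 and 227 TPM in control KD and at 23.5, 26.3 and 20.6 TPM in *Yy1* KD libraries (log2 fold change -3.17, limma adjusted p = 1.18e-04). *Sfmbt2*, a Polycomb-group protein that binds YY1, was at 7.83, 8.79 and 16.4 TPM in control KD and at 3.62, 3.61 and 2.90 TPM in *Yy1* KD libraries (-1.39, limma adjusted p = 0.0385), and was called in 0 of 6 fits that left out 1 library. *Yy2*, the other retroposed relative, was at 7.11, 6.86 and 7.53 TPM in control KD and at 8.06, 7.67 and 9.22 TPM in *Yy1* KD libraries (0.19, limma adjusted p = 0.466). *Zfp42* and *Yy2* resemble *Yy1* in their zinc finger sequence, and read pairs that match more than 1 of these genes were not examined. Whether the siRNA against *Yy1* also matches *Zfp42* was not tested. *Bap1*, *Hcfc1*, *Rybp*, *Yaf2* and *Sfmbt1* were not called. Of these, *Bap1* and *Yaf2* had higher values in every *Yy1* KD library (limma adjusted p = 0.186 and 0.149). At an unadjusted limma p under 0.05, 2 of the 8 genes were higher and 2 lower, beside 1623 and 2500 of all 17353 genes tested.

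Within 50 kb of the 10 genes, 36 other genes were tested, of which 1 was called higher (*Gm44287*) and 3 lower, beside 1.92% and 4.20% of all genes. *Gm44287* shares exonic sequence with *Ino80b*, and these small counts were not tested against that background. *Taok2*, a kinase gene 3300 bases from *Ino80e*, fell from 26.3 ± 2.09 to 10.3 ± 1.09 TPM (SD, n = 3 each), with a limma adjusted p of 0.00762 and a log2 fold change of -1.27. *Gm20650*, also beside *Ino80e*, fell from 10.4 ± 4.64 to 1.43 ± 0.749 TPM (-2.17, limma adjusted p = 0.0304). *Chdh*, the choline dehydrogenase gene 2668 bases from *Actr8*, fell from 9.40 ± 0.419 to 5.69 ± 0.592 TPM (-0.64, limma adjusted p = 0.0496). These are 2 of 6 genes tested near *Ino80e* and 1 of 4 near *Actr8*. No gene tested near *Yy1*, *Ino80*, *Ino80d*, *Actr5*, *Nfrkb* or *Mcrs1* was called in this fit, and none was tested near *Ino80c*. *Mir3474*, a microRNA gene that shares 8 exonic bases with *Actr5*, was at 25.0, 75.1 and 45.1 TPM in control KD and at 3.34, 6.27 and 15.7 TPM in *Yy1* KD libraries (limma adjusted p = 0.0515), which rested on 1.5 to 45 read pairs. It lay lower in every *Yy1* KD library, as did *Kcnh3*, a potassium channel gene that shares 1 exonic base with *Mcrs1* (log2 fold change -0.53, limma adjusted p = 0.198).

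Profiles over the 6 libraries were compared by the Euclidean distance of centred log2(TPM + 1) values among 6318 genes whose mean TPM reached 10. Closest to *Ino80b* were *Glud1*, *Ercc5* and *Thap1*. The difference between the groups enters this distance, so it does not show that genes vary together within a group. *Glud1*, which encodes glutamate dehydrogenase, was at 41.7, 36.8 and 39.7 TPM in control KD and at 87.2, 96.1 and 89.5 TPM in *Yy1* KD libraries, at a distance of 0.322. *Ercc5*, an endonuclease of nucleotide excision repair, and *Thap1*, a transcription factor, were both at a distance of 0.498, with log2 fold changes of 1.21 and 1.08. By the same measure, *Zfp42* (distance 0.321) was the closest to *Yy1*. *Thrap3*, a protein of transcription and splicing complexes, was in place 3 at a larger distance (1.13). Its log2 fold change was -2.42, against -3.32 for *Yy1*.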

How the data were processed

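RNA of pooled morulae was sequenced from both ends after SMART-Seq Stranded library preparation. Per the labels and the methods of the study, the authors trimmed reads with Trim Galore 0.6.7, aligned them to mm10 with HISAT2 2.2.1, removed ribosomal RNA reads with bedtools, and divided read pairs among GENCODE vM25 genes with featureCounts 2.0.1, ignoring strand. The authors deposited TPM per gene and library; 0 columns of values were left unused.

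Genes that reached a TPM of 1 in 3 or more of the 6 libraries were fitted with limma 3.58.1 (R 4.3.3) on log2(TPM + 1) with a variance trend, two-sided, with Benjamini-Hochberg adjustment over the 17353 genes tested. The authors used edgeR on counts; the deposited values are TPM, so limma was the main test and limma-voom on recovered read pairs an alternative. A pseudocount understates changes of low genes. On simulated libraries of 17637 tested genes, 36 of 103 genes changed by 1 and 65 of 83 changed by 2 (log2) were called. IDs were matched to GENCODE vM21 on the same assembly; among values under 20 pairs, 89.0% to 90.9% were whole within 0.01 pair for genes without exonic overlap. Python 3.11.15, pandas 2.3.3, numpy 2.4.6 and matplotlib 3.10.9 were used.

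The 10 genes and all lists were chosen with earlier results of these data known. Other named genes are called members of lists of 30 or fewer genes and those needed for a count, relatives of *Yy1*, genes overlapping a subunit or within 50 kb of *Ino80b*, and the 3 genes closest to *Yy1* and *Ino80b* in profile, of which 1 is not reported here. The genes called near other subunits, with *Sox2*, *Smarca5*, *Smarca4* and *Chd4*, were chosen after their values were seen. Alternatives were another pseudocount, 2 other filters, 2 scalings, 3 variance or weight models, a replicate block and each library left out; limma-voom and the subtraction of *Gm44287* pairs were added after seeing the data.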

Additional observations from a re-analysis of the deposited data

How the results depend on the processing

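Over all alternatives that gave a test, *Yy1* and *Ino80b* were called in the same direction, with log2 fold changes of -3.45 to -3.26 and 1.38 to 1.49. The subtraction of *Gm44287* pairs gave no test and a log2 fold change of 1.36 for *Ino80b*. *Ino80* was called in 15 of 16, the exception being without control KD replicate 3 (0.63). Leaving out 1 library gave 22 to 92 genes called higher and 53 to 326 lower, 1 to 2 of the 10 genes higher and 1 lower, 0 higher and 1 to 2 lower related genes (all lists together, against 4 and 3), 1 higher and 1 to 2 lower genes within 50 kb, and a rise of the *Ino80b* share of 8.76 to 9.16 percentage points.

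Against 333 genes called higher and 728 lower, 77 and 270 were called without a filter on low values and 132 and 382 without a variance trend. With a replicate block 69 and 218 were called, and with limma-voom 838 and 1323. A filter at a mean TPM of at least 5 gave 378 and 841, and quantile normalization 387 and 551. Of the related genes, 55 were tested in the main fit. Those called higher and lower were 1 and 1 without a filter, and 7 and 5 at a mean TPM of at least 5. They were 0 and 1 without a trend, 0 and 1 with the replicate block, and 9 and 7 with limma-voom. Quantile normalization called 7 higher and 3 lower. Where 0 related genes were called higher with limma, 10 to 13 of the 55 tested were higher at an unadjusted p under 0.05. In the main fit these were 15 of 55, beside 1623 of all 17353 genes tested. The share of all genes in the other fits was not computed, so these counts have no background there. Genes within 50 kb called lower were 1 without a filter and 1 without a trend, and 2 were called higher with limma-voom. With limma-voom 2 of the 10 genes were lower, *Actr5* (-0.94) being added. In the 100 bases nearest to the start, 0 promoters held the consensus. The cause of these differences was not tested.

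Small differences changed sign in 4 genes. With quantile normalization the log2 fold change was 0.031 for *Ino80d*, 0.024 for *Nfrkb* and 0.060 for *Mcrs1*, and with median-ratio scaling it was 0.0087 for *Mcrs1*. Leaving out 1 library gave -0.030 to 0.117 for *Ino80c*, -0.092 to 0.020 for *Ino80d*, -0.123 to 0.0013 for *Nfrkb* and -0.088 to 0.067 for *Mcrs1*, so that control KD replicates 2 and 3 and *Yy1* KD replicates 1 and 2 each turned at least 1 of these signs.

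Same-numbered libraries of the 2 groups deviated together with r of 0.00 to 0.07 over genes, and differently numbered ones with -0.07 to 0.04. The spread of single pools may hide an effect shared by 2 libraries, so these values cannot decide whether the numbers pair them. The replicate block called *Yy1*, *Ino80* and *Ino80b* as before. Depth was between 11793509 and 24417789 read pairs, and *Actr5* and *Actr8* rested on 141 to 750 and 148 to 478.5 pairs per library.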
